A study of Equus caballus with 10 samples.

Results

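The genes described here are 10 genes of growth factor signalling between stromal and vascular cells: the platelet-derived growth factor (PDGF) genes *PDGFA*, *PDGFB*, *PDGFC* and *PDGFD*, the PDGF receptor genes *PDGFRA* and *PDGFRB*, the lymphangiogenic genes *VEGFC* and *VEGFD*, the angiopoietin gene *ANGPT1* and the hepatocyte growth factor gene *HGF*. They were chosen by gene symbol from the 29196 genes of the expression table, and all 10 were found and could be tested. Primary tenocytes from the superficial digital flexor tendons of 5 adult horses (called donors 1 to 5) were grown in 3D collagen gels for 14 days. In both groups PF-06650833, a small molecule inhibitor of the kinase IRAK-4 that acts downstream of the interleukin-1 (IL-1) receptor, was added daily at 100 nM. In the PF-06650833 alone group nothing else was added (IL-1β at 0 ng/ml), and in the IL-1β plus PF-06650833 group IL-1β was given at 17 ng/ml every 3 to 4 days. These groups are called the libraries without and with IL-1β from here on. Each donor gave 1 library to each group, so there were 5 libraries per group. Cultures without the inhibitor were not analysed here, so each difference is that between cultures with and without IL-1β while the inhibitor was present. The cells were passaged primary cultures in serum-containing medium and each library is RNA from several gels pooled. In such bulk samples, fewer cells of a type and less RNA per cell cannot be told apart.

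PDGFs are dimeric ligands that drive the growth and migration of fibroblasts, pericytes and smooth muscle cells through the receptor tyrosine kinases PDGFRα and PDGFRβ. PDGF-AA and PDGF-CC act mainly on PDGFRα, PDGF-BB on both receptors and PDGF-DD mainly on PDGFRβ, and the C and D forms need to be cleaved outside the cell before they can bind. VEGF-C and VEGF-D, which also need proteolytic cleavage, drive the growth of lymphatic vessels through VEGFR-3, the product of *FLT4*. Angiopoietin-1 is the stabilizing ligand of the endothelial receptor TIE2, the product of *TEK*, and HGF, a product of mesenchymal cells, signals to neighbouring cells through MET. Tendon is a tissue of few vessels, and vessels grow into it after injury.

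Values are the deposited log2 values after variance stabilization, on which a gene with 0 reads stands at 3.43. Normalized counts given beside them were recovered from these values. They are not corrected for gene length, so levels are compared between libraries and not between genes. The estimated reads on genes ranged from 26672336 to 36093461 per library without IL-1β and from 27002119 to 33464155 with IL-1β. No pair of libraries was the same, with correlations between 0.966 and 0.991 across genes. A gene was called differentially expressed at an adjusted p below 0.05 (limma, Benjamini-Hochberg over 17992 tested genes) and a log2 fold change of 1 or more in either direction. Of all tested genes, 6.68% were called, 3.11% being higher and 3.57% lower in the libraries with IL-1β.

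Of the 10 genes, 3 were higher with IL-1β and none (0) was called lower. *HGF* and *ANGPT1* rose by 3.69 and 3.00 on the log2 scale and *VEGFC* by 1.48, each in 5 of 5 donors. None of the 4 PDGF ligand genes and neither PDGF receptor gene was called, although *PDGFC* was lower in 5 of 5 donors by less than the minimum fold change. The other 7 genes had log2 fold changes between -0.70 and 0.50. The groups did not overlap for 4 of the 10 genes, 3 higher and 1 lower, against 12.7% of all tested genes (6.29% higher and 6.41% lower). Over the 10 genes the log2 fold changes had a median of 0.46, and over all tested genes of -0.01. The same 3 genes were called with the donor as a block, a fit in which 8.26% of all tested genes were called and 4.01% were called higher.

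**Figure D1:**
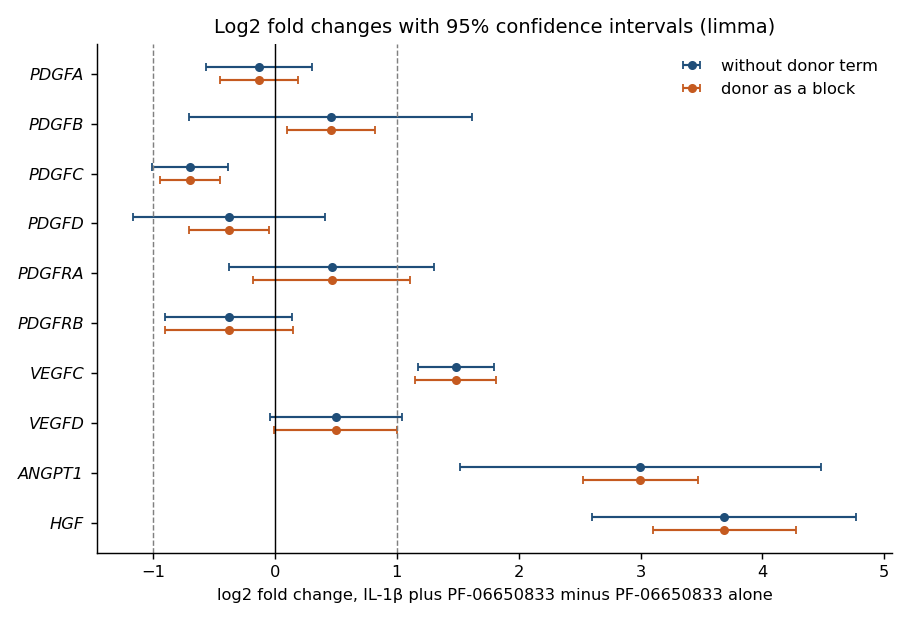
Log2 fold change of each of the 10 genes (x axis, with minus without IL-1β, 5 libraries per group), with 95% confidence intervals from limma without a donor term (blue) and with the donor as a block (orange). Dashed lines mark an absolute log2 fold change of 1, and the intervals of *VEGFC*, *ANGPT1* and *HGF* lie to the right of the upper one in both fits.

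*HGF*, the ligand of MET, had the largest change of the 10 genes. With PF-06650833 alone its log2 values were 7.82, 7.68, 6.73, 5.01 and 6.47 in donors 1 to 5, and with IL-1β they were 10.51, 11.32, 10.21, 9.67 and 10.45. The groups did not overlap, and donor 4 was the lowest library of each group. The log2 fold change was 3.69 (standard error 0.49, adjusted p = 9.63e-04 from limma). In normalized counts, *HGF* lay between 14.3 and 206 without IL-1β and between 793 and 2527 with IL-1β. The increase within a donor was 6.98-fold in donor 1, 13.8-fold in donor 2, 13.6-fold in donor 3, 55.6-fold in donor 4 and 20.0-fold in donor 5. The largest increase was thus in the donor with the lowest starting level, and the levels with IL-1β were less spread (SD 0.59, n = 5) than those without IL-1β (SD 1.13, n = 5).

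*ANGPT1*, the activating ligand of TIE2, also rose in each donor, to levels that differed more between donors (SD 1.40, n = 5) than those of *HGF*. Its log2 values were 6.01, 7.76, 7.19, 5.25 and 7.47 in donors 1 to 5 without IL-1β and 9.08, 11.00, 9.55, 7.85 and 11.20 with IL-1β. The highest library without IL-1β, donor 2 at 7.76, lay just under the lowest library with it, donor 4 at 7.85. The log2 fold change was 3.00 (standard error 0.67, adjusted p = 0.0129 from limma). Within donors the normalized counts rose 11.6-fold, 10.3-fold, 5.85-fold, 10.7-fold and 14.9-fold. These increases were alike in size while the levels were not: with IL-1β the normalized counts ran from 209 in donor 4 to 2335 in donor 5. Without both libraries of donor 1 *ANGPT1* was no longer called (log2 fold change 2.98, adjusted p = 0.0578 from limma), and with the donor as a block in those libraries it was (adjusted p = 0.00266 from limma).

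*VEGFC*, which encodes the main lymphangiogenic ligand, had a smaller change with little spread. The log2 values were 10.99, 11.27, 11.39, 11.22 and 11.09 in donors 1 to 5 without IL-1β and 13.02, 12.99, 12.48, 12.42 and 12.48 with IL-1β. All 5 libraries with IL-1β lay above all 5 without it, and donors 1 and 2 were the highest of the treated libraries. The log2 fold change was 1.48 (standard error 0.14, adjusted p = 1.71e-04 from limma). Normalized counts rose from between 2018 and 2666 to between 5457 and 8260, which is 4.09-fold in donor 1, 3.31-fold in donor 2, 2.13-fold in donor 3, 2.30-fold in donor 4 and 2.63-fold in donor 5.

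*VEGFD*, the related lymphangiogenic ligand, was near the lowest value of the table in both groups. It was listed at 0 in donor 5 without IL-1β, and its largest normalized count was 14.9, in donor 3 with IL-1β. Its log2 values were 4.19, 4.65, 4.54, 3.90 and 3.43 without IL-1β and 4.76, 4.36, 5.04, 4.53 and 4.52 with IL-1β, so the groups overlapped. It was higher in 4 of 5 donors and was not called (log2 fold change 0.50, 95% confidence interval -0.04 to 1.04, adjusted p = 0.204 from limma). At this depth a change of the size seen for *VEGFC* could not be read for *VEGFD* on the variance-stabilized scale, which compresses differences between low values. On log2(normalized count + 0.5) the same difference was 1.55 and was not called either (adjusted p = 0.205 from limma). Donor 5 went from 0 to 6.46 normalized counts, so this value depends on the pseudocount added to 0.

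**Figure D2:**
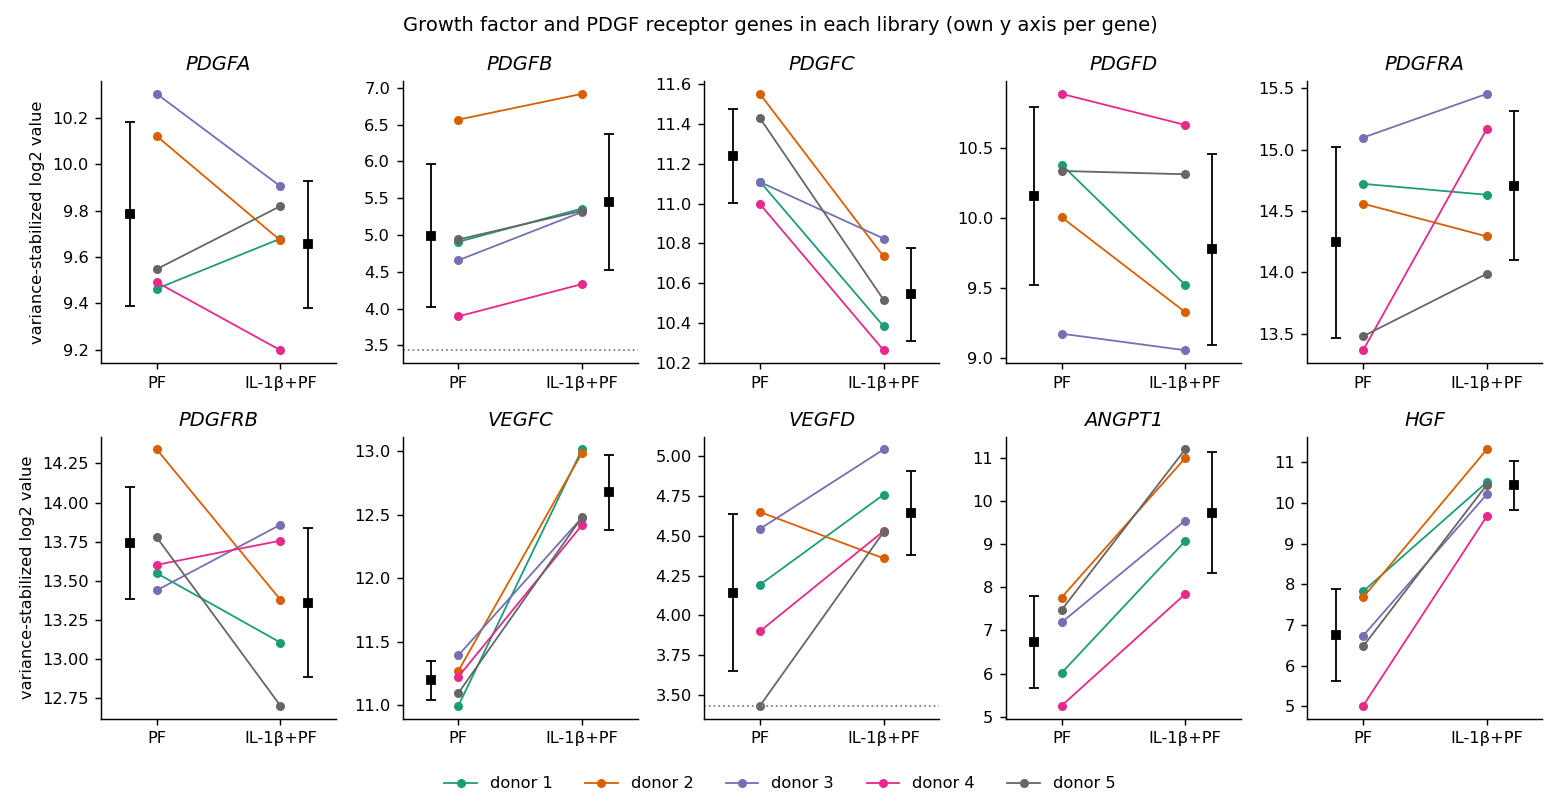
Variance-stabilized log2 value (y axis, own range for each gene) of the 10 genes in each library, PF-06650833 alone (PF) on the left and IL-1β plus PF-06650833 (IL-1β+PF) on the right of each panel, coloured lines joining the 2 libraries of a donor, and black squares with bars for the group mean ± SD (n = 5). Dotted lines mark the value of 0 reads. All lines rise for *VEGFC*, *ANGPT1*, *HGF* and *PDGFB* and all fall for *PDGFC* and *PDGFD*, while they cross for *PDGFA*, *PDGFRA* and *PDGFRB*.

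Among the PDGF ligands, *PDGFC*, whose product acts on PDGFRα, had the lowest adjusted p. Its log2 values were 11.11, 11.55, 11.11, 11.00 and 11.43 in donors 1 to 5 without IL-1β and 10.38, 10.73, 10.82, 10.26 and 10.52 with IL-1β. Every library with IL-1β was thus below every library without it. The log2 fold change was -0.70 (standard error 0.14, adjusted p = 0.00794 from limma), which passed the p threshold, as 15.5% of all tested genes did (7.89% lower), but not the minimum fold change. Normalized counts with IL-1β were 0.600, 0.564, 0.819, 0.596 and 0.527 of those without IL-1β in donors 1 to 5. Without both libraries of donor 5 the adjusted p was 0.0504 from limma, and 0.0146 with the donor as a block.

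*PDGFD*, whose product acts on PDGFRβ, was lower in 5 of 5 donors too, but the donors differed from each other by more than the groups did. Log2 values ran from 9.18 in donor 3 to 10.88 in donor 4 without IL-1β, and from 9.06 to 10.66 in the same donors with IL-1β. The difference within a donor was -0.86 and -0.68 on the log2 scale in donors 1 and 2 and between -0.22 and -0.02 in the other donors. *PDGFD* was not called (log2 fold change -0.38, 95% confidence interval -1.17 to 0.41, adjusted p = 0.532 from limma; with the donor as a block -0.71 to -0.05, adjusted p = 0.0938).

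*PDGFA*, which encodes the other chain that acts on PDGFRα, was lower in 3 donors and higher in 2. Its log2 values were 9.46, 10.12, 10.30, 9.49 and 9.55 without IL-1β and 9.68, 9.67, 9.91, 9.20 and 9.82 with IL-1β. The groups overlapped, and the log2 fold change was -0.13 (95% confidence interval -0.56 to 0.30, adjusted p = 0.715 from limma). This interval excludes a change as large as the minimum fold change in either direction.

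*PDGFB*, the ligand of both receptors that endothelial cells and platelets are known to release, had few reads in these cultures. Normalized counts were 12.3, 74.5, 8.24, 1.11 and 12.9 in donors 1 to 5 without IL-1β and 22.3, 100.3, 21.1, 4.33 and 21.5 with IL-1β. Donor 2 was the highest and donor 4 the lowest in each group. *PDGFB* was higher with IL-1β in 5 of 5 donors, by 1.35-fold in donor 2 to 3.91-fold in donor 4, and was not called (log2 fold change 0.46, 95% confidence interval -0.70 to 1.62, adjusted p = 0.622 from limma; with the donor as a block 0.09 to 0.82, adjusted p = 0.0735). On log2(normalized count + 1) the difference was 0.91 (adjusted p = 0.573 from limma).

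Both PDGF receptor genes were well covered in all libraries and neither was called. *PDGFRA*, a receptor of mesenchymal and fibroblast cells, had log2 values of 14.72, 14.56, 15.10, 13.36 and 13.48 in donors 1 to 5 without IL-1β and 14.63, 14.29, 15.46, 15.17 and 13.99 with IL-1β. Donor 4 had the largest difference, from 10523 to 36820 normalized counts (3.50-fold), while the other donors lay between 0.831-fold and 1.42-fold. The log2 fold change was 0.46 (95% confidence interval -0.38 to 1.31, adjusted p = 0.466 from limma), and 0.13 without both libraries of donor 4 (adjusted p = 0.872).

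*PDGFRB*, the receptor that pericytes and fibroblasts carry, had log2 values of 13.55, 14.34, 13.44, 13.60 and 13.78 without IL-1β and 13.11, 13.38, 13.86, 13.76 and 12.70 with IL-1β. It was lower in donors 1, 2 and 5 and higher in donors 3 and 4. The log2 fold change was -0.38 (95% confidence interval -0.90 to 0.14, adjusted p = 0.316 from limma).

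Differences between genes of the same library are given for the pairs that were well covered in all libraries, without a test. The log2 difference *PDGFRA* minus *PDGFRB* was 1.17, 0.22, 1.66, -0.24 and -0.30 in donors 1 to 5 without IL-1β and 1.53, 0.91, 1.60, 1.41 and 1.29 with IL-1β. It was higher with IL-1β in 4 donors and lower by 0.06 in donor 3, and its SD was 0.87 without IL-1β and 0.27 with IL-1β (n = 5 each). The difference *PDGFC* minus *PDGFD* was lower in 4 of 5 donors.

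The 10 genes differed in how much of their variation lay between treatments and how much between donors. Treatment accounted for 92.4% of the sum of squares of *VEGFC* over the 10 libraries, 83.9% for *HGF*, 73.0% for *PDGFC* and 64.6% for *ANGPT1*. Donor accounted for 92.9% for *PDGFB*, 83.5% for *PDGFD*, 70.7% for *PDGFA* and 57.9% for *PDGFRA*. *PDGFRB* had the largest remainder of the 10 genes, 49.3%, which is variation that neither a common treatment difference nor a common donor level describes. These shares describe the libraries and carry no test.

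**Figure D3:**
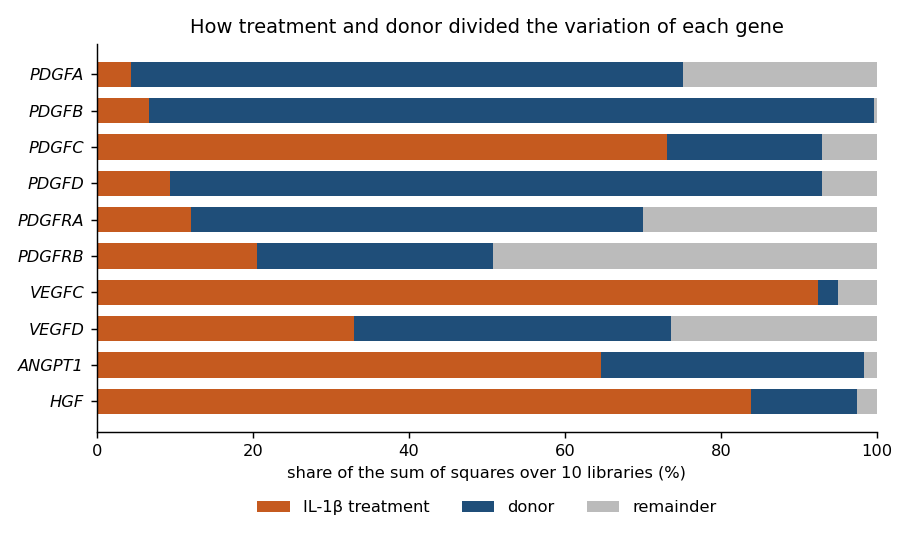
Share of the sum of squares of the log2 values over 10 libraries (x axis, %) taken by IL-1β treatment (orange), donor (blue) and the remainder (grey) for each of the 10 genes. Treatment holds 92.4% for *VEGFC* and 4.41% for *PDGFA*, and donor holds 92.9% for *PDGFB* and 2.59% for *VEGFC*.

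Around these 10 genes, 56 genes of the same pathways were examined in 5 lists, of which 54 were in the table and 49 were tested. Of these, 6 were called, 3 higher and 3 lower, beside 6.68% of all tested genes. With the donor as a block, 8 were called, 5 higher and 3 lower, beside 8.26% of all tested genes. The median log2 fold change was -0.34 for the receptors, 0.13 for the other ligands, -0.06 for the processing and binding genes, 0.34 for the angiopoietin-like genes and 0.06 for the transducers, beside -0.01 for all tested genes. The called genes were *VEGFA*, *ANGPTL4* and *CTSD* (higher) and *SPINT2*, *PCSK6* and *CCBE1* (lower).

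Among 7 tested receptors and co-receptors 0 were called by limma, and 3 had an unadjusted p below 0.05. The share of all tested genes at that unadjusted level was not computed, so such counts have no background here. *MET*, the receptor of HGF, had a log2 fold change of -0.83 and was lower in 5 of 5 donors (adjusted p = 0.0946 from limma, and 0.00299 with the donor as a block, in both cases short of the minimum fold change). Normalized counts of *MET* lay between 2295 and 5227 without IL-1β and between 1194 and 3149 with IL-1β. Without donor 4 with IL-1β, *MET* was called (log2 fold change -1.05, adjusted p = 0.0250 from limma). The receptors of VEGF-C and angiopoietin-1 were hardly detected: *FLT4* was listed at 0 in all 10 libraries, and *TEK* had at most 7.05 normalized counts and was listed at 0 in 4 libraries. *NRP2*, a co-receptor of VEGF-C that is named here after its values were seen, was not called (log2 fold change -0.75, adjusted p = 0.158 from limma). It was well covered, with 10003 to 40895 normalized counts, and lower in 5 of 5 donors. With the donor as a block its adjusted p was 0.0342 from limma, with a change short of the minimum fold change. *NRP2* was called without donor 3 with IL-1β (log2 fold change -1.01, adjusted p = 0.0317 from limma).

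Among 5 other ligands 1 was called. *VEGFA*, the main angiogenic ligand, had log2 values of 13.63, 13.49, 14.87, 13.63 and 12.79 in donors 1 to 5 without IL-1β and 14.64, 14.39, 15.54, 15.08 and 14.69 with IL-1β. It rose in 5 of 5 donors, although the groups overlapped through donor 3 (log2 fold change 1.18, standard error 0.34, adjusted p = 0.0384 from limma). The call was lost in 8 of the 10 fits that left out 1 library, all but those without donor 3 without IL-1β and without donor 2 with IL-1β. The adjusted p was then 0.0616 to 0.0843 (limma). With the donor as a block and all libraries kept, *VEGFA* was called (adjusted p = 0.00394 from limma). *ANGPT2*, which encodes the context-dependent antagonist of angiopoietin-1, was higher in 4 of 5 donors on at most 82.3 normalized counts (log2 fold change 1.15, adjusted p = 0.112 from limma). It was called with the donor as a block (adjusted p = 0.0246 from limma), and without donor 4 with IL-1β (log2 fold change 1.51, adjusted p = 0.0167 from limma). *VEGFB*, which encodes a ligand of VEGFR-1, was not called (log2 fold change -0.26, adjusted p = 0.139 from limma).

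**Figure D4:**
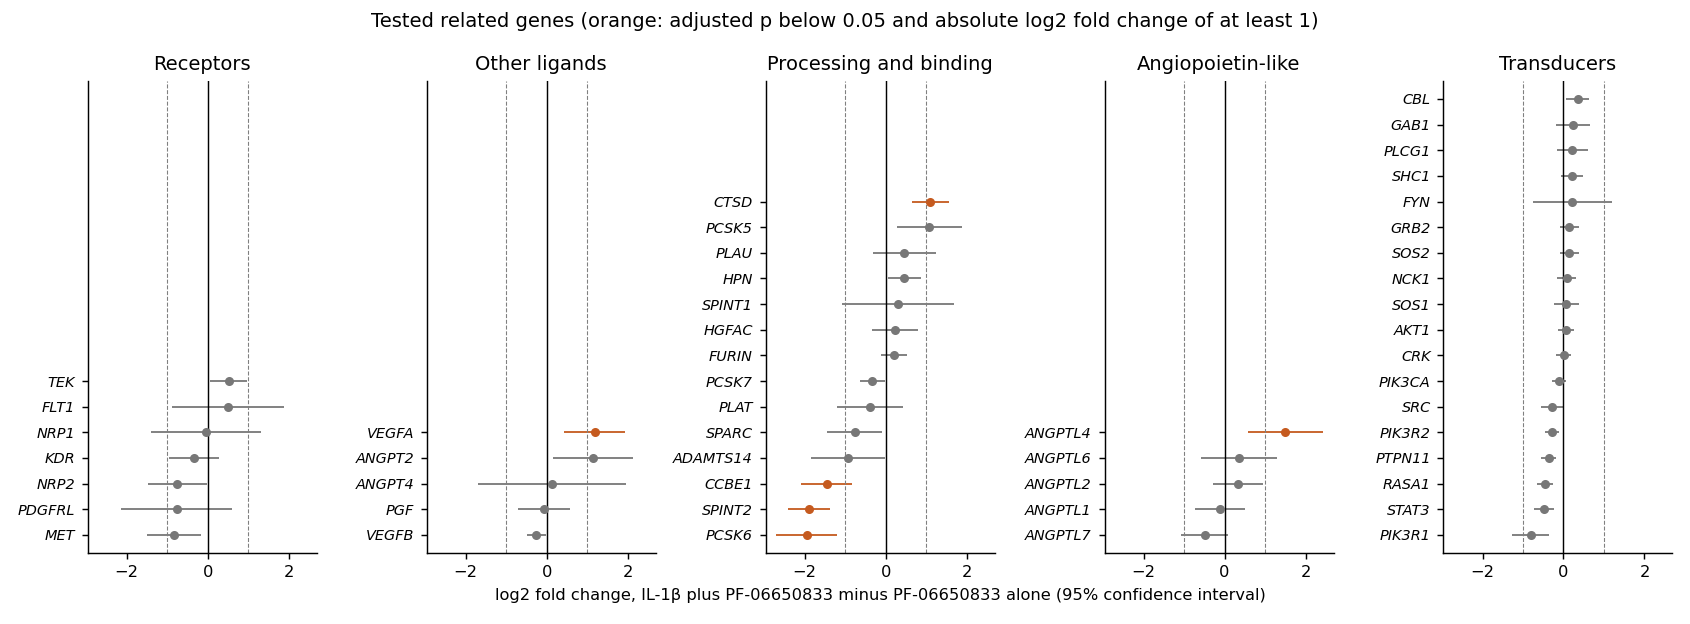
Log2 fold change (x axis, with minus without IL-1β) with 95% confidence intervals from limma for the 49 tested related genes in 5 lists, with called genes in orange and dashed lines at an absolute log2 fold change of 1. The receptor and transducer lists hold no called gene, and the list of processing and binding genes holds 4.

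Among 14 tested genes that process or bind these ligands 4 were called, 1 higher and 3 lower, beside 6.68% of all tested genes. *SPINT2*, which encodes an inhibitor of the proteases that activate HGF, fell in 5 of 5 donors, from normalized counts between 697 and 987 to counts between 117 and 360 (log2 fold change -1.89, standard error 0.23, adjusted p = 6.40e-04 from limma). *CCBE1*, whose product promotes the cleavage of VEGF-C, had normalized counts between 2163 and 6307 without IL-1β and between 1190 and 2329 with IL-1β, and was lower in 5 of 5 donors (log2 fold change -1.45, standard error 0.29, adjusted p = 0.00708 from limma). *SPINT2* encodes an inhibitor and *CCBE1* a promoter of ligand processing, and both transcripts fell while those of *HGF* and *VEGFC* rose. The effect on ligand processing was not tested. *PCSK6*, a proprotein convertase gene, fell as well (log2 fold change -1.95, adjusted p = 0.00396 from limma). *CTSD*, the gene of the lysosomal protease cathepsin D, rose (log2 fold change 1.10, adjusted p = 0.00551 from limma), and fell short of the minimum fold change without donor 5 without IL-1β (0.99). *PCSK5*, another proprotein convertase gene, was called with the donor as a block (log2 fold change 1.08, adjusted p = 0.0692 from limma, and 0.0238 with the block). It was also called without donor 4 without IL-1β (log2 fold change 1.30, adjusted p = 0.0371 from limma). *HPN*, the gene of a membrane protease, had at most 7.82 normalized counts in a library and was not called (log2 fold change 0.46, adjusted p = 0.120 from limma). *ADAMTS3* and *A2M* were not analysed here.

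Of 5 tested angiopoietin-like genes, *ANGPTL4*, an inhibitor of lipoprotein lipase, was called and higher in 5 of 5 donors (log2 fold change 1.50, standard error 0.42, adjusted p = 0.0353 from limma). Its call was lost in 7 of the 10 fits without 1 library, all but those without donor 2 or donor 3 without IL-1β or donor 4 with IL-1β. The adjusted p was then at most 0.0870 (limma). With the donor as a block and all libraries kept, *ANGPTL4* was called (adjusted p = 0.00223 from limma). *ANGPTL2*, a secreted glycoprotein gene, was not called (log2 fold change 0.34, adjusted p = 0.476 from limma). *ANGPTL7* was not called either (log2 fold change -0.49, adjusted p = 0.249 from limma), and it was listed at 0 in 4 libraries.

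Among 18 transducers of receptor tyrosine kinases 0 were called by limma, and 6 had an unadjusted p below 0.05, again without a share over all genes. At an adjusted p below 0.05 with no minimum fold change there were 5, all of them lower. Of all tested genes, 15.5% passed that threshold, 7.89% being lower. *STAT3*, a transcription factor gene, had a log2 fold change of -0.49 (adjusted p = 0.0134 from limma) and *RASA1*, which encodes a negative regulator of RAS, of -0.46 (adjusted p = 0.00656 from limma), both lower in 5 of 5 donors. The other genes, named after their values were seen, were the phosphatase gene *PTPN11* (log2 fold change -0.36) and the PI3-kinase regulatory subunit genes *PIK3R1* (-0.81) and *PIK3R2* (-0.28).

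Markers of the cell types that carry or answer to these factors were examined beside them. Of the endothelial markers 0 of 5 tested were called by limma, and 2 had an unadjusted p below 0.05, without a share over all genes. Their summed normalized counts were 51.0 to 92.5 without IL-1β and 76.0 to 177 with IL-1β, with *EGFL7* as the largest part in each library. *EGFL7* was higher with IL-1β in 5 of 5 donors, with groups that did not overlap, and was not called (log2 fold change 0.71, adjusted p = 0.0539 from limma). *VWF* had at most 37.2 and *ESAM* at most 16.0 normalized counts. The defining genes *CDH5*, *EMCN* and *ROBO4* were listed at 0 in 8, 9 and 9 of the 10 libraries. *PECAM1*, another defining gene, was listed at 0 in 2 libraries and had at most 2.72 normalized counts without and 18.8 with IL-1β (log2 fold change 0.67, higher in 4 of 5 donors, adjusted p = 0.168 from limma). *CLDN5* had at most 9.46 normalized counts and a log2 fold change of -0.53 (adjusted p = 0.210 from limma). Of the lymphatic markers 0 of 3 tested were called, and 0 had an unadjusted p below 0.05 (limma), with sums of 1971 to 4648 and 1657 to 5771 that are mostly *PDPN*, which fibroblasts also express. *PROX1* was present in each library, *LYVE1* had at most 50.02 normalized counts, and *MMRN1* was listed at 0 in all.

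Of 10 tested pericyte and smooth muscle markers 3 were called, all lower, where 3.57% of all tested genes were called lower. They were *RGS5*, *CSPG4* and *DES*, named after their values were seen, with log2 fold changes of -1.96, -1.84 and -2.98. *ABCC9* and *MCAM* of the same list had log2 fold changes of 1.02 and 0.34 and were not called (adjusted p of 0.575 or more from limma). A second entry of the table, ABCC9_1, which was not in the list and is named after its values were seen, was higher (log2 fold change 2.67, adjusted p = 0.00218 from limma). The sum of this list, mostly *ACTA2*, *TAGLN* and *CNN1*, was 59167 to 315836 normalized counts without IL-1β and 74567 to 123514 with IL-1β. *ACTA2* was called with the donor as a block (log2 fold change -1.01, adjusted p = 0.227 from limma, and 0.0334 with the block). Of the leukocyte markers 1 of 3 tested was called, *CD68*, which was higher (log2 fold change 1.70, adjusted p = 0.00795 from limma) and which fibroblasts can also express. *PTPRC*, the defining leukocyte gene, was listed at 0 in 9 of 10 libraries and *AIF1* and *CD3E* in all. The sums of that list were 81.2 to 1823 and 178 to 1907. *CD14* was detected in 6 libraries and made up most of the sum there, except in donor 2 with IL-1β. In that library *CD68* had 738 and *CD14* 702 normalized counts. With the donor as a block *LAPTM5* was called as well (log2 fold change -1.67, adjusted p = 0.0255 from limma).

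Of 8 tested tenocyte markers 3 were called, all lower, where 3.57% of all tested genes were called lower. They were *SCX*, *MKX* and *TNC*, named after their values were seen. With the donor as a block there were 5, again all lower, with *COL1A1* (log2 fold change -1.38, adjusted p = 0.0147 from limma) and *COL1A2* (-1.28, adjusted p = 0.0169). That fit called 765 of the 17992 tested genes lower. *DCN* was not called (log2 fold change 1.01, adjusted p = 0.268 from limma). The defining tendon gene *SCX* had between 1179 and 4625 normalized counts without IL-1β and between 97.6 and 343 with IL-1β, and *TNMD* was listed at 0 in all 10 libraries. The sums of the tenocyte list were 841233 to 1415020 and 237588 to 987211. The median log2 fold change of the tested markers was -0.08 for the endothelial and the lymphatic list, -0.71 for the pericyte and smooth muscle list, 1.70 for the leukocyte list and -1.35 for the tenocyte list. The leukocyte median rests on 3 tested genes and is the value of *CD68*. The other tested leukocyte markers were *CD14* at 2.66 and *LAPTM5* at -1.67, neither called without the donor block. The part of the muscle, leukocyte and tenocyte marker differences in the changes of *HGF*, *ANGPT1*, *VEGFC* and *PDGFC* was not tested.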

How the data were processed

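RNA from 10 cultures (5 donors, each with PF-06650833 alone and with IL-1β plus PF-06650833) was sequenced as polyA libraries. Per the methods, Salmon (version 1.8, with GC-bias correction) assigned reads to EquCab3.0 transcripts and tximport gave gene totals. The authors deposited log2 values normalized between libraries. The sources used here do not name the transformation, and the values have the form of DESeq2's (version 1.36) variance stabilization, with a lowest value of 3.43 shared by all libraries. Inverting that form gave the normalized counts, and the spacing of low counts gave the estimated reads, an approximation in which 67.7 to 84.7% of low values lay within 0.15 of a whole read. Samples were grouped by the treatment labels, and donors were paired by the cell line in the labels.

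A gene was tested if 5 or more of the 10 libraries exceeded the lowest value. The tool was limma (version 3.58.1 in R, version 4.3.3), using its mean-variance trend and no donor term, and also with the donor as a block. Deviations from the group means were shared by both libraries of a donor (correlations across genes of 0.367 to 0.506 over 5 pairs), and the donor is given in the labels. The mean over 20 pairs of different donors was -0.11. Centring on the group means pushes that mean to a negative value, so it is not a separate contrast. Each donor is a separate animal. All p-values of genes are from limma. The fit was also run on simulated data with large planted changes and no donor effect. Donors do differ here, so that run gives no support to the calls made without a donor term. The genes, the lists and the tests were chosen with earlier results of these data known. By rule, the text names the 10 genes, each related gene that was called and up to 2 others per list by adjusted p, and the 3 markers per list with the highest level. Further related genes and markers are named outside this rule, with their values known. Sequences were not used here. The alternatives were the donor block, other filters, the back-transformed scale with a pseudocount of 1 or 0.5, quantile normalization, median centring, other variance models and thresholds, and leaving out each library or donor.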

Additional observations from a re-analysis of the deposited data

Results flagged for a closer look

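Of 82 groups of 5 libraries examined for the named genes, 6 had a library far from the other 4, where chance gives about 4.1. None of the 10 growth factor and receptor genes was among them. *TEK* was at 4.23 on the log2 scale in donor 1 without IL-1β (3.34 normalized counts) and at the value of 0 reads in the other 4 libraries. *ANGPTL7* was at 4.68 in donor 4 with IL-1β (8.53 normalized counts) and at the value of 0 reads in the others. With IL-1β, *EGFL7* was at 7.31 in donor 2 against 6.34 to 6.45 in the other 4, *PROX1* at 8.64 in donor 3 against 7.02 to 7.41, and *DCN* at 15.10 in donor 5 against 16.69 to 17.33. The same donors were also the highest for *PROX1* (8.65) and the lowest for *DCN* (14.61) without IL-1β. *CD14* was at 3.43, the value of 0 reads, in donor 3 with IL-1β, against 8.75 to 10.73 in the others. Without IL-1β it was at that value in donor 3 too, and in donors 4 and 5.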

How the results depend on the processing

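Over up to 34 alternatives, no sign changed for the 10 genes, and the call held throughout for 8 of them. Alternatives that alter only the donor block, the threshold or the trend and robust settings of limma keep the fold change. They could not change a sign. *ANGPT1* was not called at an adjusted p below 0.01 or without both libraries of donor 1, and *PDGFC* was called without a minimum fold change. Leaving out libraries or donors gave 2 to 3 called genes of the 10, 2 to 3 higher and 0 lower. Those fits called between 4.24% and 9.32% of all tested genes. Without a minimum fold change 1 of the 10 was called lower, with and without the replicate block. Of the 17992 tested genes, 1420 were then called lower without the block and 2027 with it. The replicate block changed no call among the 10. Of the 16 related genes named by the rule 8 held throughout and none changed sign. *NRP2*, *PTPN11*, *PIK3R1* and *PIK3R2*, named outside the rule, were each called under at least 1 alternative, and none changed sign. The other ligands numbered 2 called in place of 1 with the replicate block, with it on log2(normalized count + 1) or without a minimum fold change, and with array weights, and 0 under quantile normalization and with the adjusted p threshold at 0.01. Leaving out 1 library gave 0 to 1 for these, 0 to 1 for the angiopoietin-like genes and for the receptors, 3 to 5 for the processing genes and 0 for the transducers. The angiopoietin-like genes numbered 0 at an adjusted p below 0.01. Without a minimum fold change the replicate block gave 2 receptors and 4 transducers, and the fit without the block gave 5 transducers. Across all genes, 2782 passed without a minimum fold change, 3996 with the replicate block too, 1809 with the replicate block on log2(normalized count + 1) and 719 at an adjusted p below 0.01, against 1202. The cause of these changes was not tested. Few reads limit what can be said of *VEGFD*, *PDGFB*, *TEK* and *ANGPT2*.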
